A study of Mus musculus with 6 samples.

Results

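The 10 genes described here belong to TGF-beta and BMP signaling. They are the ligand genes Tgfb1, Tgfb2, Tgfb3, Inhba and Bmp7, the activator Thbs1, the receptor genes Tgfbr1 and Tgfbr2, the inhibitory Smad gene Smad7 and the target gene Id1. They were chosen by name for their place in the pathway, with earlier results of these data known, from 24422 genes with deposited counts. Poly-A RNA of whole kidneys was sequenced for 3 Control and 3 TfR1 knockout samples on a C57BL/6 background, at postnatal day 13 and on an iron sufficient diet (220 ppm). The comparison asks how kidney RNA differs when transferrin receptor 1 (TfR1, gene Tfrc), the receptor through which cells take up transferrin-bound iron, is deleted in nephron progenitors. Knockout mice carried the genotype Tfr1f/f;SixCre, in which Six2Cre removes the floxed Tfrc exons in cells that give rise to the nephron but not to stroma, vessels, immune cells or the collecting duct. The labels give the Control mice as wild type, while the study's methods describe floxed littermates as controls, so a floxed allele in the Control group cannot be told apart from its absence here. The study also states that some nephron cells escaped deletion. The labels number the kidneys and do not tie them to animals, so the p-values measure the spread between these samples. Control libraries had 5534, 6485 and 3667 normalized counts of Tfrc itself, and knockout libraries 6976, 4045 and 5898, with a log2 fold change of 0.11 (adjusted p = 0.853). These counts cover all exons of the gene in the whole kidney, including cells without Cre, and do not check the genotype labels, on which every direction below rests.

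TGF-beta ligands are secreted in a latent complex and held in the extracellular matrix until proteins such as thrombospondin 1 or the integrins release them. The free ligand brings type II and type I receptors together, and these phosphorylate Smad proteins that enter the nucleus with Smad4. BMPs use related receptors and a different set of Smads, and secreted antagonists hold BMPs away from their receptors. In the kidney, BMP7 maintains nephron progenitors, and TGF-beta is best known for its part in matrix deposition and fibrosis.

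Of the 10 genes, Smad7 alone passed the test, and it fell in the knockout. All 10 had an adjusted p from DESeq2, so all 10 passed its filter on low counts. The count was 1 lower and 0 higher at an adjusted p under 0.05, against 7.18% lower and 7.74% higher among the 16509 genes tested, or 14.9% in either direction. With edgeR's quasi-likelihood test, which called 6.02% of 15308 genes, 0 of the 9 members it tested passed. At an unadjusted p under 0.05, 2 members were higher and 1 lower in DESeq2, and 1 was higher (Thbs1) and 1 lower (Smad7) in edgeR. The share of all genes at this unadjusted threshold is not given here, so these counts have no background to be read against. In 2 members the libraries of the groups did not overlap, Smad7 below and Thbs1 above Control, beside 33.7% of all genes tested without overlap (16.9% in each direction). Because whole kidneys were sequenced, fewer cells of a type and less RNA per cell cannot be told apart. The median log2 fold change of the 10 was -0.013, beside 0.0071 over all genes tested.

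**Figure D1:**
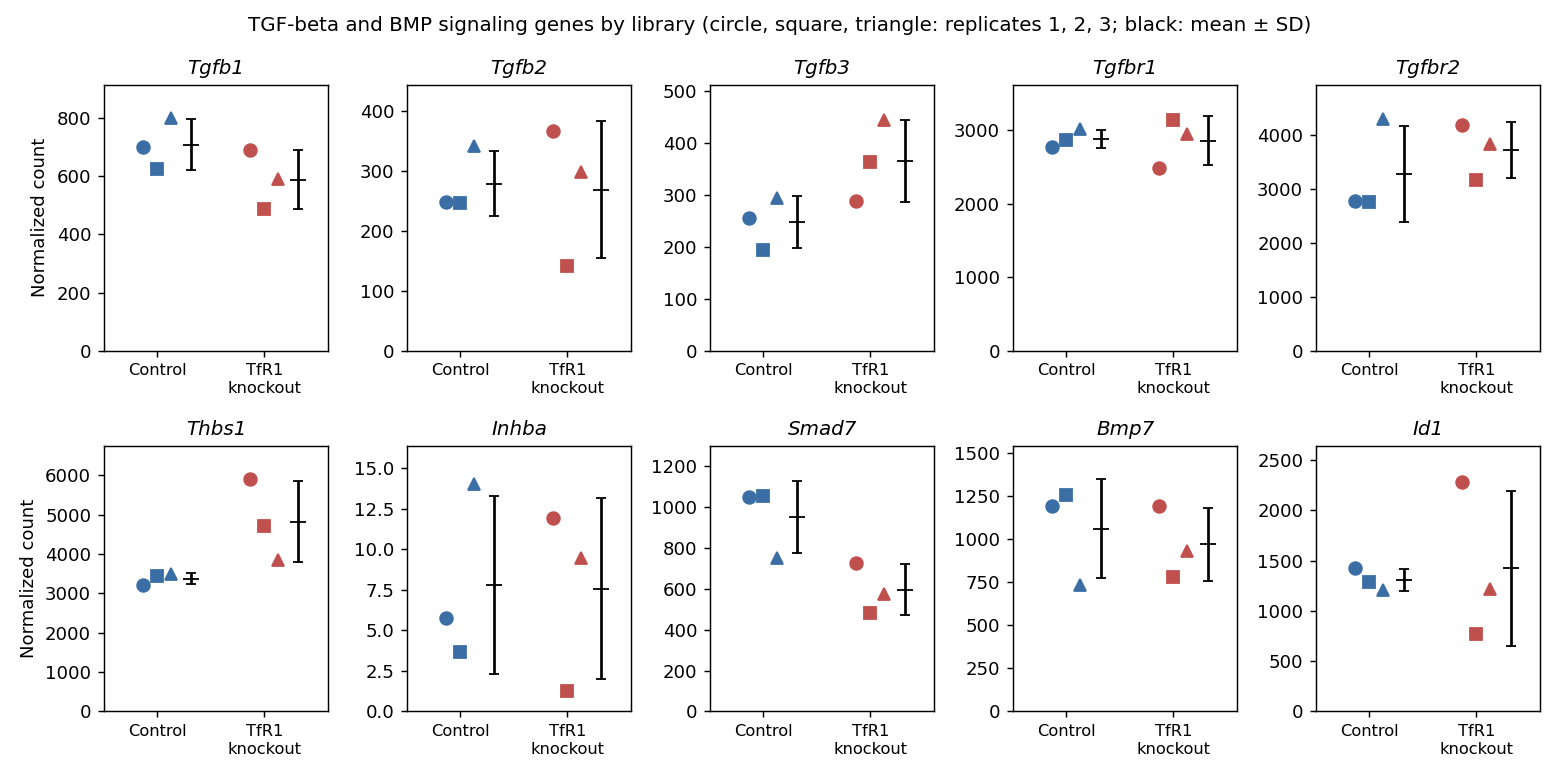
Normalized count (y axis, from 0) of each of the 10 genes in the 3 Control and 3 TfR1 knockout libraries, with the mean ± SD of each group in black. In the Smad7 panel the lowest Control library (748) lies just above the highest knockout library (727), and in the Thbs1 panel the knockout libraries spread from 3838 to 5891 above a tight Control group.

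Tgfb1 codes for the TGF-beta ligand most studied in fibrosis. It lies on the plus strand of mouse chromosome 7 (26472021 to 26490096, build mm9), as gene ENSMUSG00000002603.9. Normalized counts are raw counts divided by DESeq2's size factor of the library, and here and below they are given in the order of replicates 1 to 3. Those of Tgfb1 were 702, 625 and 801 for Control and 690.1, 486 and 590.3 for the knockout. The 2 lowest libraries were knockouts and the highest was a Control, but the groups overlapped. The means were 710 ± 88.0 and 589 ± 102 (SD, n = 3 each), a log2 fold change of -0.27 ± 0.21 (SE) with an adjusted p of 0.436. The 95% interval of the difference, unadjusted as in all intervals given here, ran from 0.622-fold to 1.11-fold.

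Tgfb2, on the minus strand of chromosome 1 (188447065 to 188529871), codes for a second isoform of the ligand. Control libraries had normalized counts of 248, 246 and 342, and knockout libraries 366, 142 and 299. The knockout group held both the highest and the lowest library, so its SD of 115 was wider than the Control SD of 54.9. The log2 fold change was -0.05 ± 0.37 (adjusted p = 0.953), with an interval of 0.586-fold to 1.59-fold. It was positive without knockout replicate 2 (0.26) or without Control replicate 3 (0.12).

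Tgfb3 had the highest log2 fold change among the 10 genes. It is the third isoform, on the minus strand of chromosome 12 (87397694 to 87419991). Counts of Tgfb3 were 256, 195 and 293 in Control and 287, 362 and 444 in the knockout. Knockout replicates 2 and 3 lay above every Control library, and knockout replicate 1 lay between the Control values. The means of 248 ± 49.6 and 364 ± 78.2 gave a log2 fold change of 0.56 ± 0.27, or 1.47-fold, with an adjusted p of 0.150 (edgeR 0.205). The unadjusted p was 0.0368, and the adjusted p stayed above the threshold when any single library was left out, with values from 0.0580 to 0.498.

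The make-up of the 3 TGF-beta isoforms was also described per length, as CPM (counts scaled to a common library total) per kb of exon. Tgfb1 took 68.4%, 69.3% and 66.6% of the 3 isoforms' summed level in Control and 62.7%, 58.2% and 54.5% in the knockout. Tgfb3 took 18.8%, 16.3% and 18.4% in Control and 19.7%, 32.8% and 31.0% in the knockout. The Tgfb1 share was lower, and the Tgfb3 share higher, in every knockout library than in every Control library. The counts of each of these genes overlapped between the groups, and 33.7% of all genes tested had counts without overlap. Tgfb2 took 14.1% ± 1.17 in Control and 13.7% ± 4.35 in the knockout, and these ranges overlapped. The shares sum to a whole within a library and therefore move against each other, and they were not tested.

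**Figure D2:**
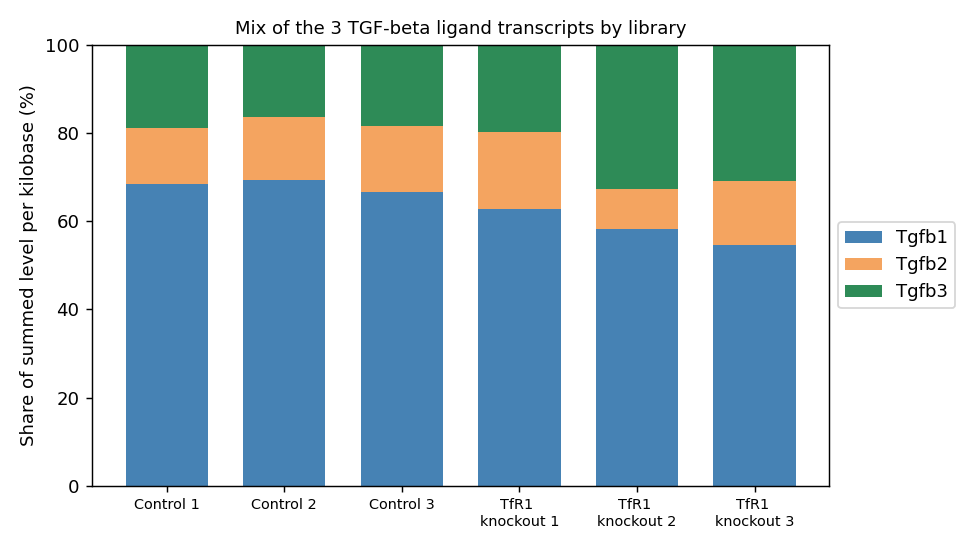
Share (y axis, %) of Tgfb1, Tgfb2 and Tgfb3 in the summed level of the 3 isoforms per kb of exon, for each library on the x axis. Tgfb1 made up 66.6% to 69.3% in Control and 54.5% to 62.7% in the knockout libraries.

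Inhba and Bmp7 are the other ligand genes. Inhba codes for the activin A subunit and lies on the plus strand of chromosome 13 (16103684 to 16119044). It was close to the limit of detection, with raw counts of 7, 4 and 13 in Control and 12, 1 and 10 in the knockout. Its log2 fold change was -0.012 ± 1.02 (adjusted p = 0.996), and the interval of 0.249-fold to 3.95-fold leaves the direction unresolved at this depth. It turned positive without Control replicate 3 (0.69) or knockout replicate 2 (0.48), and the filters of edgeR and limma left it untested. Bmp7, the BMP that keeps nephron progenitors alive, lies on the minus strand of chromosome 2 (172693513 to 172765822). Bmp7 counts were 1189.8, 1257 and 731 in Control and 1194, 780.4 and 931 in the knockout. Control replicate 3 held the lowest value of all 6 libraries, below every knockout library. The means of 1059 ± 286 and 969 ± 210 gave a log2 fold change of -0.13 ± 0.28 (adjusted p = 0.813), with an interval of 0.624-fold to 1.34-fold. Without Control replicate 2 the value was 0.0057, and without knockout replicate 2 it was 0.0071.

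Thbs1 codes for thrombospondin 1, a matrix protein that can release TGF-beta from its latent complex and that platelets also carry. It lies on the plus strand of chromosome 2 (117937612 to 117952869). Thbs1 counts were 3204, 3440.3 and 3478 in Control and 5891, 4713 and 3838 in the knockout. Every knockout library lay above every Control library, and the knockout libraries were far more spread. The means were 3374 ± 148 and 4814 ± 1030, a log2 fold change of 0.51 ± 0.20 or 1.43-fold, with an adjusted p of 0.0715 (edgeR 0.138). Leaving out knockout replicate 3, the lowest of its group, gave 0.66 with an adjusted p of 0.0216, and leaving out knockout replicate 1, the highest, gave 0.34 with an adjusted p of 0.191. Of the 4 platelet markers tested, 0 passed in either direction, and the summed level of the list ran from 251 to 379 in Control and from 359 to 470 in the knockout. Of the macrophage markers 7 of 10 were higher and 0 lower (6 higher with edgeR), with summed levels of 2821 to 4781 in Control and 7971 to 10184 in the knockout. The part of platelets and macrophages in the Thbs1 values was not tested.

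Neither receptor gene passed the test, and both had smaller fold changes than Thbs1. Tgfbr1 codes for the type I TGF-beta receptor kinase and lies on the plus strand of chromosome 4 (47366094 to 47427803). Tgfbr1 counts were 2765, 2870.4 and 3013 in Control and 2487, 3136 and 2949 in the knockout. The Control values fell inside the range of the knockout values. The log2 fold change was -0.013 ± 0.16 (adjusted p = 0.972), with an interval of 0.799-fold to 1.23-fold, the narrowest of the 10 genes. It was positive without Control replicate 3 (0.017) or knockout replicate 1 (0.078). Tgfbr2 codes for the type II receptor that binds the ligand and lies on the minus strand of chromosome 9 (115993415 to 116084383). Tgfbr2 counts were 2770.4, 2746 and 4295 in Control and 4169, 3156 and 3817 in the knockout. Control replicate 3 was the highest of the 6 libraries and the other 2 Control libraries were the lowest. The log2 fold change was 0.18 ± 0.24 (adjusted p = 0.675), with an interval of 0.815-fold to 1.58-fold. Without Control replicate 3 it was 0.43, with an adjusted p of 0.115.

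Smad7 codes for an inhibitory Smad that blocks the type I receptor and is itself switched on by TGF-beta and BMP signals. It lies on the plus strand of chromosome 18 (75527183 to 75555589). Normalized counts of Smad7 were 1049.6, 1054 and 748 in Control and 727, 481 and 574 in the knockout. Every knockout library was below every Control library, although Control replicate 3 and knockout replicate 1 lay close together. The means were 951 ± 175 and 594 ± 124, a log2 fold change of -0.68 ± 0.25 or 0.625-fold, with an adjusted p of 0.0412 in DESeq2. The adjusted p was 0.0984 (unadjusted 0.0127) in edgeR and 0.0972 in limma-voom, with log2 fold changes of -0.69 in both. The call also depended on single libraries. It held without Control replicate 3 or knockout replicate 1, and was lost without Control replicate 1 (adjusted p = 0.248), Control replicate 2 (0.237), knockout replicate 2 (0.162) or knockout replicate 3 (0.181). The fold change kept its sign in all 6 of these fits, with log2 values between -0.85 and -0.54.

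Id1 codes for an inhibitor of helix-loop-helix transcription factors and is a direct target of the BMP Smads. It lies on the plus strand of chromosome 2 (152561987 to 152563146). Id1 counts were 1429, 1289 and 1204.5 in Control and 2278, 768 and 1220.3 in the knockout. Knockout replicate 1 was the highest of the 6 libraries and knockout replicate 2 the lowest, with the Control libraries between them. The knockout SD was 775 against 113 in Control. The log2 fold change of 0.12 ± 0.37 had an adjusted p of 0.871 and an interval from -0.61 to 0.85 on the log2 scale. Without knockout replicate 1 it was -0.39.

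**Figure D3:**
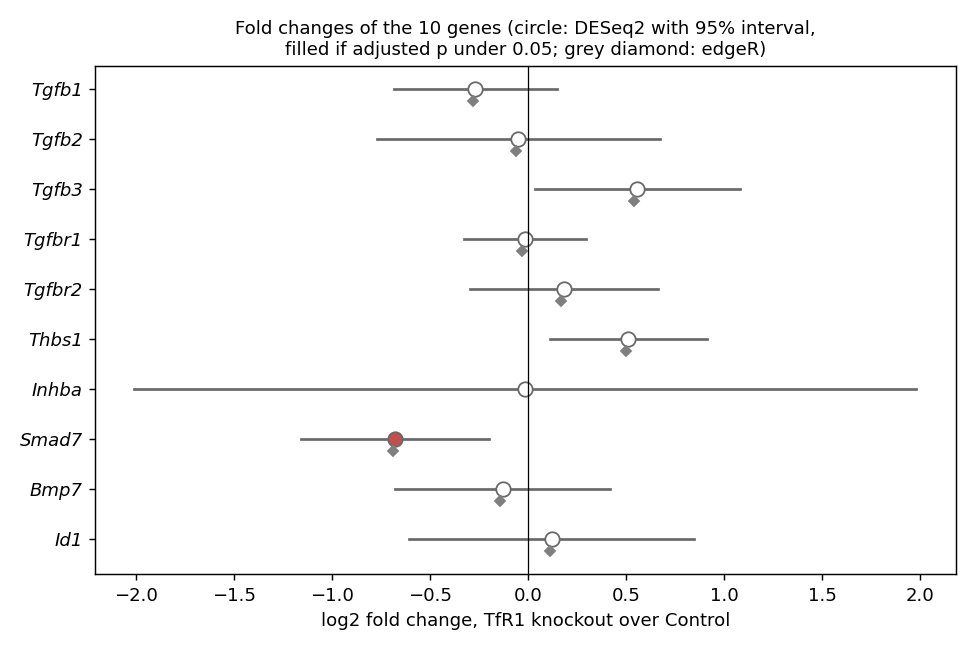
DESeq2 log2 fold change, TfR1 knockout over Control (x axis), with its unadjusted 95% interval for each of the 10 genes. The Smad7 interval lies below 0, those of Thbs1 and Tgfb3 lie above 0 without passing the adjusted test, and the other 7 intervals include 0.

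**Figure D4:**
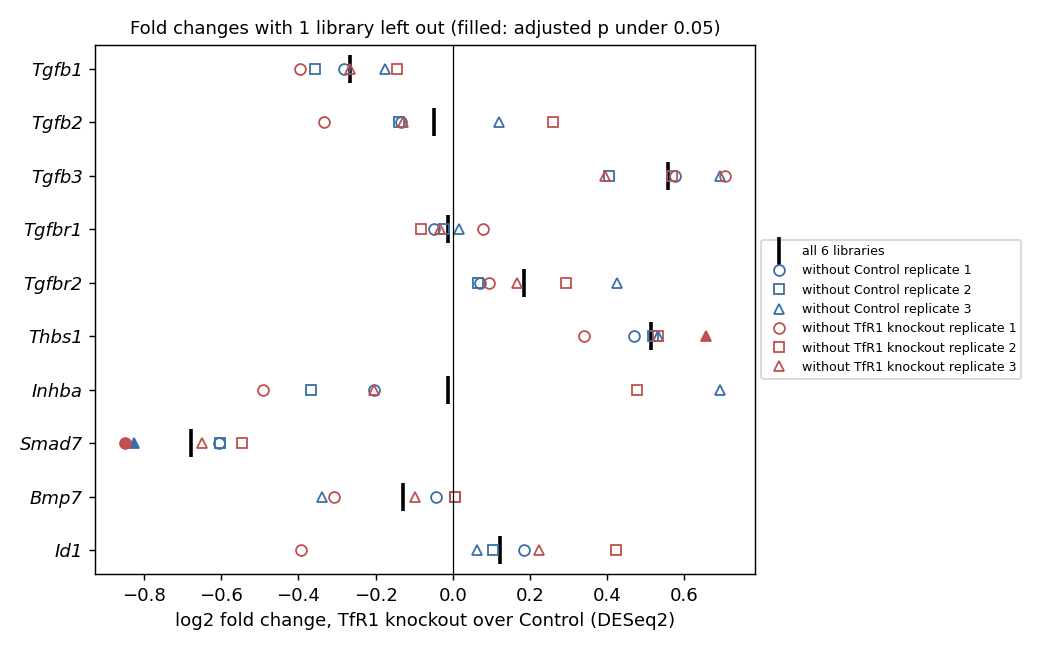
Log2 fold change, TfR1 knockout over Control (x axis), of the 10 genes with all libraries and with each library left out in turn. Smad7 and Tgfb1 stayed below 0 and Tgfb3, Tgfbr2 and Thbs1 above 0 in every fit, while Tgfb2, Tgfbr1, Inhba, Bmp7 and Id1 were on both sides of 0.

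Levels of different genes were compared only per length, in CPM per kb of exon. In Control the order ran from Id1 (60.3 ± 4.27) and Thbs1 (29.8 ± 2.09) through Tgfbr1 (23.7 ± 1.87) and Tgfbr2 (21.8 ± 6.86) to Tgfb1 (14.9 ± 2.45), Bmp7 (14.0 ± 3.34) and Smad7 (11.2 ± 1.69). Tgfb3 (3.94 ± 0.93), Tgfb2 (3.10 ± 0.74) and Inhba (0.22) followed. Neighbouring ranges of the Control libraries overlapped between Tgfbr1 and Tgfbr2, between Tgfb1 and Bmp7, between Bmp7 and Smad7, and between Tgfb3 and Tgfb2, so the order within those pairs is not resolved. Both receptor genes were thus above the ligand genes, and Id1 was the most abundant of the 10 per length.

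The genes most like Tgfb3 and Smad7, the members with the highest and the lowest fold change, were found by Pearson's r of log2(normalized count + 1) over the 6 libraries. Among 12113 genes, Nrxn2 (r = 0.987), Adarb1 (0.979) and Zfp668 (0.978) lay closest to Tgfb3. Ckb (0.998), Id4 (0.997) and Ccnd1 (0.996) lay closest to Smad7. With 6 libraries and this many genes, high values arise for many pairs, and the values are a description.

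The wider pathway was described with 7 lists of 96 genes in all, of which 92 had an adjusted p. Of these 92, 9 were higher (9.78%) and 12 lower (13.0%), beside 7.74% and 7.18% of all genes tested. With edgeR 6 were higher and 4 lower, beside 3.22% and 2.8% of the genes it tested. The lists were chosen with earlier results of these data known, so the shares are a description and not a test of the pathway. The median log2 fold change over the 92 was -0.08, and 0.03 without Control replicate 3. Beside the 10 genes, up to 2 called genes per list and direction are named below.

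**Figure D5:**
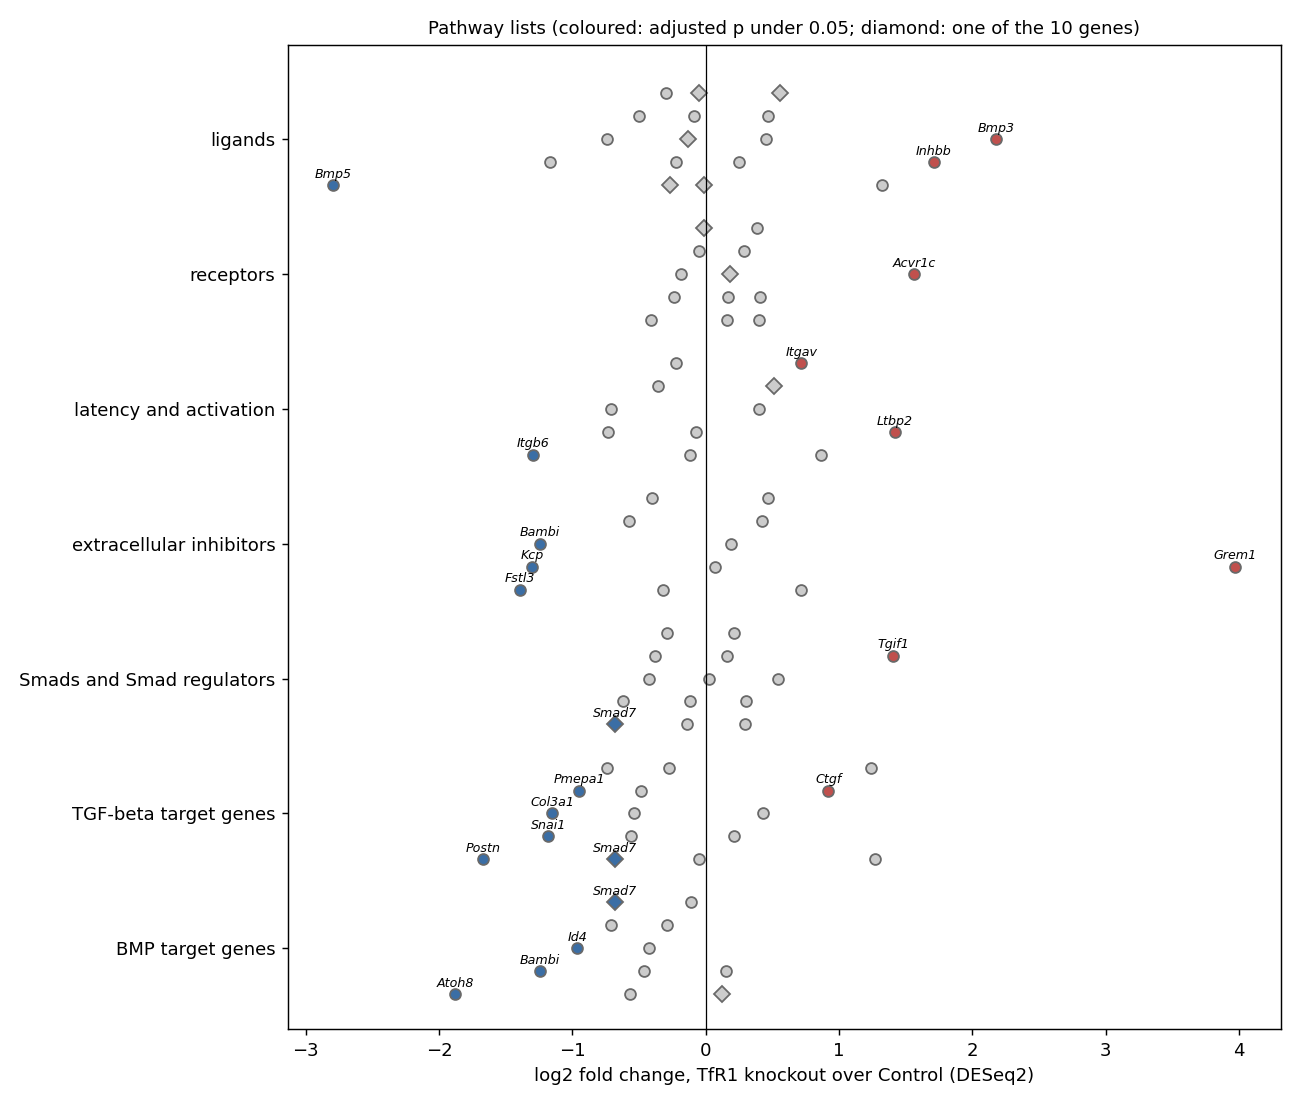
Log2 fold change, TfR1 knockout over Control (x axis), of the genes reported here that had an adjusted p, by pathway list (7 lists, y axis). Coloured points passed at an adjusted p under 0.05 and diamonds are the 10 genes. Grem1 and Bmp3 lie farthest to the right and Bmp5 farthest to the left, and BMP target genes that passed all lie below 0.

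Among the ligands, 2 of 18 tested genes were higher and 1 was lower. Bmp3, which codes for a BMP that opposes the others, had normalized counts of 258, 293 and 258 in Control and 799.5, 1425 and 1438 in the knockout. All knockout libraries were far above all Control libraries, with a log2 fold change of 2.18 ± 0.27 (adjusted p = 2.96e-13, edgeR 0.0050). Inhbb, the activin B subunit gene, had counts of 66.8, 55.4 and 92.6 in Control and 271, 273 and 158 in the knockout, again without overlap (log2 fold change 1.71 ± 0.34, adjusted p = 1.95e-05, edgeR 0.0289). Bmp5, named after its values were seen, fell by 2.79 on the log2 scale (adjusted p = 0.0057) at no more than 47 raw counts in any library, and its adjusted p was 0.173 without Control replicate 1. The only receptor gene of 13 that passed was Acvr1c, the type I receptor for Nodal and activin B, which rose in DESeq2 by a log2 fold change of 1.56 ± 0.40 (adjusted p = 0.0017) and had an adjusted p of 0.0581 in edgeR.

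Of the 12 genes of latency and activation, 2 were higher and 1 was lower. Itgav codes for the integrin subunit shared by the receptors that release latent TGF-beta, and Itgb6 for a partner of it in epithelium. Itgav counts were 3299, 3517 and 3338 in Control and 4854, 6644 and 5182 in the knockout, and Itgb6 counts were 2395, 2507 and 1332 in Control and 1039, 724 and 779 in the knockout. These partner genes moved in opposite directions, with log2 fold changes of 0.72 ± 0.18 (adjusted p = 0.0013, edgeR 0.0445) for Itgav and -1.29 ± 0.29 (adjusted p = 2.82e-04, edgeR 0.0352) for Itgb6. Without Control replicate 1 the adjusted p of Itgav was 0.0509. Ltbp2, a latent TGF-beta binding protein gene, passed with an adjusted p of 0.0472 (log2 fold change 1.42), but its groups overlapped, edgeR gave 0.137 and the call held only without knockout replicate 2 among the 6 fits with a library left out.

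Of the 13 extracellular inhibitors tested, 2 were higher and 3 were lower. Grem1 codes for gremlin 1, a BMP antagonist. Its normalized counts were 6.60, 8.18 and 15.1 in Control and 76.6, 235 and 150.4 in the knockout. The lowest knockout library was far above the highest Control library, and the log2 fold change of 3.97 ± 0.55, or 15.7-fold, had an adjusted p of 4.66e-11 (edgeR 0.0108). Kcp, the gene of kielin/chordin-like protein, which strengthens BMP signals although it stands in this list, fell from 612, 663 and 1086 to 361, 211 and 383 (log2 fold change -1.30 ± 0.33, adjusted p = 0.0014, edgeR 0.0522). Fstl3, an activin-binding follistatin relative, had a log2 fold change of -1.39 ± 0.44 (adjusted p = 0.0154, edgeR 0.0897) and passed only without Control replicate 3 or knockout replicate 1. Bambi, a decoy receptor without a kinase that BMP signals switch on, is described with the BMP targets.

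Among the 14 Smads and Smad regulators, 1 was higher and 1, Smad7, was lower. Tgif1, which codes for a nuclear repressor of Smad-driven transcription, had counts of 393, 461 and 473 in Control and 879, 1792 and 845 in the knockout. All knockout libraries lay above all Control libraries (log2 fold change 1.41 ± 0.33, adjusted p = 4.01e-04, edgeR 0.0395).

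TGF-beta target genes did not move one way. Of 16 tested, 1 was higher and 5 were lower, beside 7.74% and 7.18% of all genes tested. Smad7, described above, is 1 of the 5. With edgeR 1 was higher and 0 were lower, beside 3.22% and 2.8% of the genes it tested. At an unadjusted p under 0.05 edgeR had 2 higher and 5 lower, without a share over all genes at that threshold. Ctgf, which codes for a matrix-associated growth factor linked to fibrosis, had counts of 4132, 4185 and 5055 in Control and 7379, 8069 and 9829 in the knockout. It rose in every knockout library, with a log2 fold change of 0.92 ± 0.19 (adjusted p = 3.40e-05, edgeR 0.0304). Postn, the gene of the matrix protein periostin, had counts of 3405, 2949 and 6071 in Control and 1686, 705 and 1519 in the knockout. It fell by 1.67 on the log2 scale (adjusted p = 4.27e-04, edgeR 0.0522). Snai1, a transcription factor of epithelial-mesenchymal transition, had a log2 fold change of -1.18 ± 0.42 (adjusted p = 0.0360, edgeR 0.124), and passed only without knockout replicate 1 among the fits with a library left out. The median of the list was -0.51 and was -0.13 without Control replicate 3. Of the stromal markers 3 of 10 were lower and 0 higher, and with edgeR 0 of the 10 passed. Their summed levels were 78735 to 159924 in Control, replicate 3 the highest, and 43775 to 77589 in the knockout. The lists share 5 genes (Col1a1, Col1a2, Col3a1, Acta2 and Postn), and the collagens make up most of the sums, which therefore largely repeat the target genes. Of the markers not shared, Lum was lower (log2 fold change -2.05, adjusted p = 0.0032 in DESeq2 and 0.0896 in edgeR). Pdgfrb (0.29), Pdgfra (-0.31), Dcn (-0.68) and Vim (-0.41) did not pass. The part of stroma in the values of the target genes was not tested.

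BMP target genes that passed were all lower: 4 of 12 (33.3%), with 0 higher, beside 7.18% lower among all genes tested. With edgeR 2 of the 11 it tested passed, both lower, beside 2.8% lower among all genes it tested. Atoh8 codes for a helix-loop-helix transcription factor. Its counts were 376, 394 and 434 in Control and 144, 55.0 and 127 in the knockout. The Control libraries were close together and every knockout library was below them, with a log2 fold change of -1.88 ± 0.35 (adjusted p = 4.57e-06, edgeR 0.0266). Bambi counts were 721, 773 and 1252 in Control and 347, 368 and 443 in the knockout, also without overlap (log2 fold change -1.24 ± 0.27, adjusted p = 1.59e-04, edgeR 0.0302). Id4, a relative of Id1, had a log2 fold change of -0.96 ± 0.33 (adjusted p = 0.0283) with overlapping groups, passed only without Control replicate 3 or knockout replicate 1, and had an adjusted p of 0.103 in edgeR. The fourth was Smad7, which is also counted among the TGF-beta target genes and the Smads and did not pass in edgeR. The median of the list was -0.51, with values from -0.66 to -0.25 when single libraries were left out. Id1, Id2 and Id3, the target genes used most as readouts of BMP signaling, did not pass.

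Promoter sequences are shown for the BMP targets Atoh8 and Id4, which fell, and for Grem1, which rose. Each is the 250 bases before the gene start in RefSeq on build GRCm38.p6, which differs from the mm9 build of the counts, written 5′ to 3′ on the gene's strand. Capitals mark CAGAC, a short element bound by TGF-beta Smads that reads GTCTG on the other strand, and GGCGCC, a GC-rich element bound by BMP Smads.
Atoh8, chr6:72235578-72235827, strand -: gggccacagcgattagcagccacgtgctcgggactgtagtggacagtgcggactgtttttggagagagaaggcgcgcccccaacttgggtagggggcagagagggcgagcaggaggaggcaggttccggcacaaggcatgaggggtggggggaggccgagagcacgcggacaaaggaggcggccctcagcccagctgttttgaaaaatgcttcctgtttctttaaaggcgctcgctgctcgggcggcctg
Id4, chr13:48260866-48261115, strand +: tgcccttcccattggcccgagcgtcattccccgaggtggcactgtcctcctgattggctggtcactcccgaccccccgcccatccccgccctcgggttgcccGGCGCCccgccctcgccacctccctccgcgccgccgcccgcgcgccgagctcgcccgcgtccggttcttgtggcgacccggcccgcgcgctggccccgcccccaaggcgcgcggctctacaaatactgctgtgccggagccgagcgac
Grem1, chr2:113758649-113758898, strand -: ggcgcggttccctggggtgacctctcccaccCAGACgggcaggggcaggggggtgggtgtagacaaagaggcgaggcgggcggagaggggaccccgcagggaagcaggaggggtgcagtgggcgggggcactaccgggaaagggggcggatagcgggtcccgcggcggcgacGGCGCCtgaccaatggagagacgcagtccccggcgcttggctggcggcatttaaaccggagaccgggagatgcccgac
Atoh8 held neither element, Id4 held 1 GGCGCC, and Grem1 held 1 of each. Searched on both strands and without overlap of the motifs, CAGAC was in 42.2% and GGCGCC in 9.59% of 32851 windows of the same length. The GC content of the windows shown was 63.2% to 75.6%, against a median of 52.4%. A match describes letters in a window and is not a binding site. Of the 10 genes, 5 (Tgfb1, Tgfb2, Tgfbr1, Tgfbr2 and Inhba) had a window in the table.

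The libraries held 16591156 to 22898008 counts. Markers of the kidney's own cell types were present in every library, with at least 1559 raw counts of Umod, 2238 of Aqp2 and 4933 of Lrp2. Among nephron segments, all 6 thick ascending limb markers were lower (summed normalized counts 51175 to 115639 in Control and 13956 to 26572 in the knockout), as were 3 of 4 for the distal convoluted tubule and 3 of 8 for the proximal tubule, of which 1 was higher. Of the collecting duct markers 5 of 8 were higher and 0 lower (14415 to 24413 and 43593 to 70985). These are DESeq2 counts, beside 7.74% higher and 7.18% lower among all genes tested. With edgeR 2 collecting duct markers and 1 proximal tubule marker were higher. Lower with edgeR were 5 thick ascending limb, 3 distal convoluted tubule and 1 proximal tubule marker. Aqp2 was the largest part of the knockout sums, with 5747, 5581 and 2409 in Control and 17805, 50719 and 23564 in the knockout. The other called markers had log2 fold changes of 0.65 to 1.02, and Hsd11b2 had -0.34 without passing. Proliferation markers were lower for 5 of 6, endothelium markers higher for 1 of 8, podocyte markers higher for 1 of 6, and nephron progenitor markers higher for 1 and lower for 1 of 5. Six2, 1 of these progenitor markers, had only 4 to 8 raw counts per library. Called were Eya1, higher at 9 to 72 raw counts, and Meox1, lower with an adjusted p of 0.0642 in edgeR. Whether they mark nephron progenitors in these kidneys was not tested. No marker was at 0 in every library. The part of these cell types in the values of Smad7, Itgb6, Grem1 and the BMP targets was not tested.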

How the data were processed

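RNA from 6 whole kidneys (3 Control, 3 TfR1 knockout) was sequenced single-end from poly-A libraries made with a kit that does not mark strand. The authors trimmed reads with Trimmomatic, aligned them to mm9 (TopHat2 2.0.11), kept uniquely mapped reads and deposited raw counts per gene (HTSeq), without normalization; CASAVA 1.8.2 is also named in the submitters' notes. Unique counting lowers genes with near-identical copies, and without strand antisense reads are included. Groups and replicate numbers came from the labels. The 10 genes, the pathway lists and the marker lists were chosen with earlier results of these data known.

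All genes were fitted together with DESeq2 1.42.0 (R 4.3.3), the tool the study used, by a Wald test of unshrunken fold changes with its own median-ratio scaling. P-values were adjusted after Benjamini and Hochberg and called under 0.05. Independent filtering removed genes with a mean below 3.51 normalized counts, and outlier filtering gave 29 genes no p-value, which left 16509. Alternatives were edgeR 4.0.16 (quasi-likelihood, TMM), limma 3.58.1 with voom, other scalings, filters and thresholds, a block for the replicate number and fits with each library left out. Named pathway genes were, per list and direction, the 2 called genes outside the 10 with the largest fold change and a mean of at least 50 normalized counts; Bmp5 and Id4 were added, Id4 through its likeness to Smad7, and 1 gene that met the rule is not reported here. Deviations of same-numbered libraries correlated at -0.038, 0.055 and 0.090 over 15303 genes, below 0.1, and the samples were treated as unpaired. The scripts were tested on simulated data. No library was a copy of another. Control replicates 1 and 2 were the most alike within a group. A chi-square per degree of freedom, which sets their count differences against counting noise, was 10.6. The other pairs within a group had 37.9 to 103. Whether Control replicates 1 and 2 share an animal or litter is not known. Positions came from the GENCODE annotation of mm9, and no exon of the 10 genes overlaps another annotated gene.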

Additional observations from a re-analysis of the deposited data

How the results depend on the processing

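Under edgeR 493 genes were higher and 428 lower, with 0 of the 10 genes and 4 pathway genes lower. Under limma-voom the counts were 485 and 456, with 0 of the 10 and 5 pathway genes lower. At an adjusted p under 0.01 they were 758 and 688, with 0 of the 10 and 6 pathway genes lower, and requiring at least a 2-fold change they were 728 and 736, with 0 of the 10 lower. Leaving out single libraries gave 664 to 1531 genes higher and 575 to 1674 lower, 0 to 1 of the 10 in each direction, and 6 to 13 pathway genes higher and 6 to 14 lower. Each fit with a library left out also had a smaller group, and the cause of these changes was not tested. With the replicate block 1085 genes were higher and 1087 lower, with 0 and 1 of the 10 and 10 and 14 pathway genes; the shared numbers are not known to pair the samples.

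The log2 fold change of Id1 turned to -0.028 under limma-voom and to -0.015 with the replicate block. With a library left out it ran from -0.39 to 0.42, that of Tgfb2 from -0.33 to 0.26, Tgfbr1 from -0.081 to 0.078, Inhba from -0.49 to 0.69 and Bmp7 from -0.34 to 0.0071. Scaling by total counts moved the median of all genes by -0.10 on the log2 scale and turned the median of the extracellular inhibitors from 0.07 to -0.03. With 3 libraries per group, and at most 13 raw counts of Inhba in any library, the size of small differences in these genes is not resolved.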
